A study of Mus musculus with 6 samples.

Results

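The 41 genes described here encode the carnitine carriers and enzymes that oxidise fatty acids in mitochondria and peroxisomes, the peroxins that build peroxisomes, ketone body enzymes, long-chain acyl-CoA synthetases, and 4 genes of fuel choice. They were chosen by gene name from the 24341 rows of the deposited table, and each of the 41 had a row of its own. The RNA came from AMs, the macrophages of the lung airspaces, which were washed from the lungs of naive female C57BL/6 mice aged 6 to 10 weeks. There were 3 samples from CD44+/+ mice and 3 from mice without the hyaluronan receptor CD44 (CD44-/-), with no treatment in either genotype. Every sample was a pool of mice, so that the error given below is the spread between pools. The pools were small and unequal in size by the study's methods, and their sizes are not tied there to the replicate numbers used here. The genotype is that of the whole mouse and not of its AMs alone, and no sorting of the lavage cells is described.

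Long-chain fatty acids are coupled to coenzyme A by acyl-CoA synthetases and pass into mitochondria as carnitine esters, where a cycle of dehydrogenation, hydration, a second dehydrogenation and thiolysis shortens them by an acetyl-CoA at each turn. Peroxisomes run a related cycle, begun by oxidases in place of dehydrogenases, on very long, branched or otherwise awkward chains and pass shortened products to mitochondria through carnitine acyltransferases. Ketone bodies are made mainly in the liver, and other tissues turn acetoacetate back into acetyl-CoA with the transferase encoded by Oxct1. AMs take up and break down surfactant, which is rich in phospholipids, and so handle fatty acids throughout life.

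Expression is given as FPKM, which scales the fragments of a transcript by its length and by the size of the library. Genes averaging 0.5 FPKM or more across all 6 samples, 10800 in number, were tested with limma on log2(FPKM + 0.1), and every log2 fold change below is CD44-/- over CD44+/+ on that scale. Of the 41 genes 40 were tested. Cd44 itself averaged 534 FPKM in CD44+/+ and 53.5 FPKM in CD44-/- AMs, 10.0% of the CD44+/+ mean. All 14 AM markers examined were above 0.5 FPKM, and their summed level ranged from 20540 to 23450 FPKM in CD44+/+ and from 20000 to 24360 FPKM in CD44-/- samples, most of it from Chil3. Of the 14 markers Itgax was higher and Krt79, Lpl and Mrc1 were lower in CD44-/- samples without overlap. Over all genes tested 11.6% had groups without overlap (6.75% higher and 4.88% lower). Among these markers Krt79 differed most, with a log2 fold change of -0.38 (adjusted p = 0.185 by limma). Relative to CD44+/+ replicate 1, depth was between 0.813 and 1.05 in the other samples, and sums of FPKM over all genes lay between 487911 and 504192.

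Most of these genes were expressed at nearly the same level in both genotypes. Of the 40 tested, 1 (Oxct1) passed an adjusted p of 0.05 and was higher in CD44-/- AMs, and none was lower, where 0.111% of all genes tested passed (0.0741% higher, 0.037% lower). With the replicate number as a block 0 of the 40 passed by limma, beside 0.0833% of all genes. Before adjustment 4 of the 40 had a p under 0.05, with Oxct1 and Eci2 higher and Pex11a and Crat lower, against 7.69% of all genes tested (4.75% higher and 2.94% lower). That excess of higher genes depended on scaling, since 513 of 831 such genes were higher in the values as deposited and 455 of 901 after quantile scaling. In 7 of the 40, every CD44-/- sample lay on the same side of every CD44+/+ sample (Oxct1, Eci2 and Hadh higher, Pex11a, Crat, Acsl1 and Acsl4 lower), against 11.6% of all genes tested (6.75% higher and 4.88% lower). Neither share of the 40 was far above its background. The fold change was above 0 in 25 and below 0 in 15, beside 6027 and 4773 of the 10800 genes tested. Its median was 0.03, beside 0.01 over all genes tested.

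The values were precise enough to bound most differences closely. The median standard error of the log2 fold change was 0.07, beside 0.09 over all genes tested, and the median SD within a genotype was 0.08 on the log2 scale, beside 0.11. The 95% interval of the difference lay wholly within 0.25 of 0, a 1.19-fold change either way, for 28 of the 40 genes, as it did for 44.2% of all genes tested. It lay within 0.5 of 0, a 1.41-fold change, for 36 of the 40 and for 81.7% of all genes. The 4 whose interval reached further were Pex11a, Oxct1, Bdh1 and Acsl3. For all 40 the interval was within 1 of 0, a 2-fold change, as for 96.3% of all genes.

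**Figure D1:**
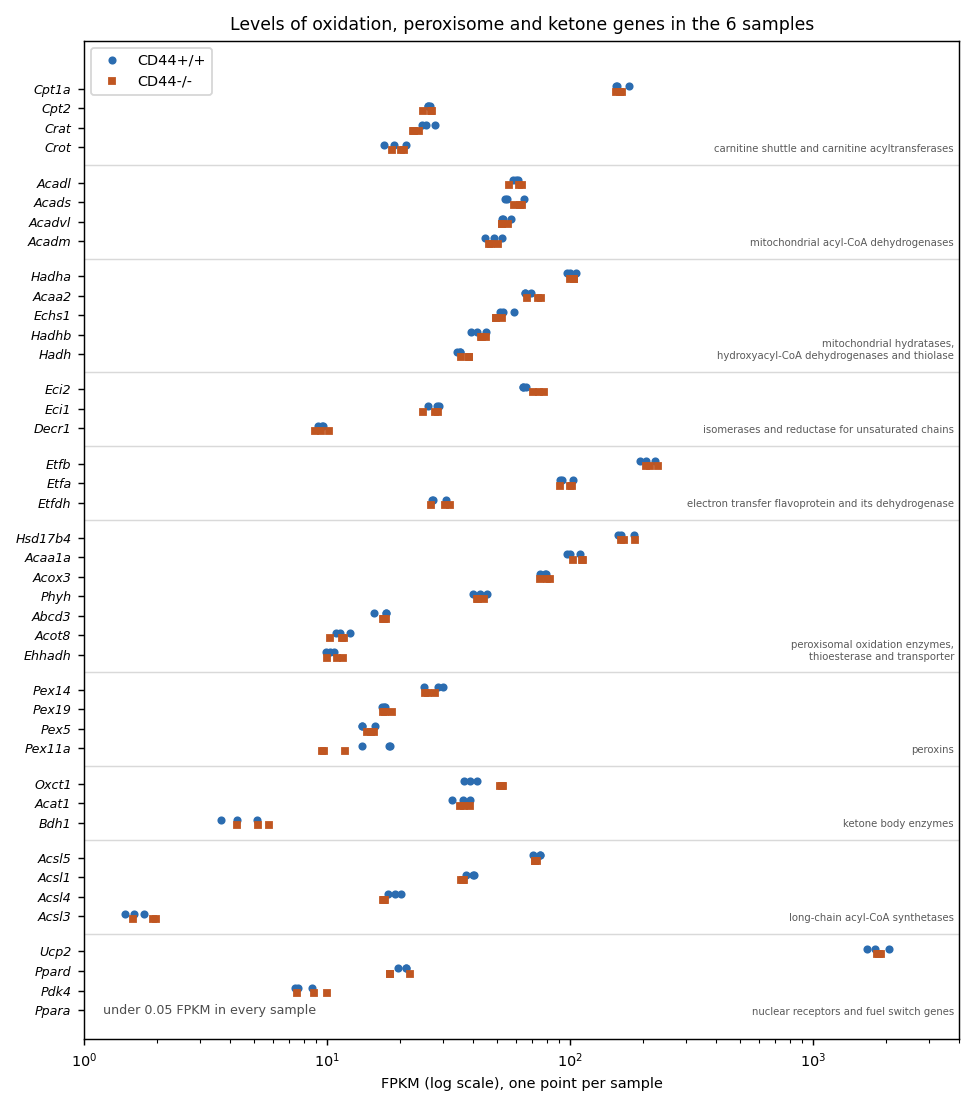
Level of each of the 41 genes in FPKM on a log axis, grouped by role, with a blue circle for each of the 3 CD44+/+ samples and an orange square for each of the 3 CD44-/- samples. Among the tested genes levels run from 1.48 FPKM for Acsl3 to 2050 FPKM for Ucp2, circles and squares lie over one another for most genes, and the clearest gaps are those of Oxct1 and Pex11a, while Ppara was under 0.05 FPKM in every sample.

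**Figure D2:**
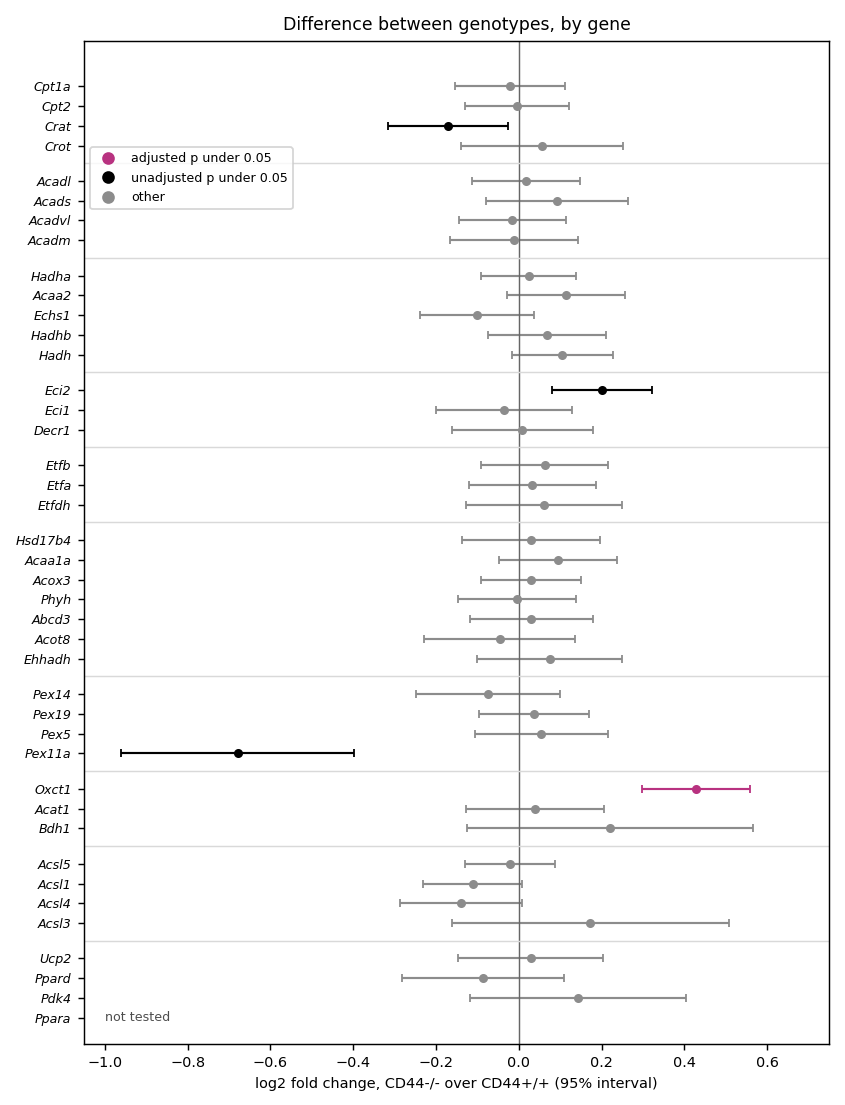
Log2 fold change of CD44-/- over CD44+/+ AMs for the 40 tested genes, with bars for the 95% interval from limma. Most intervals are short and cross 0, Oxct1 (coloured) lies to the right, and Eci2 to the right and Crat and Pex11a to the left (black) had an unadjusted but not an adjusted p under 0.05.

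Entry of fatty acids into mitochondria was carried by abundant transcripts that did not separate the genotypes. Cpt1a, the regulated outer membrane carnitine palmitoyltransferase, had 175, 155 and 156 FPKM in CD44+/+ samples and 163, 160 and 155 FPKM in CD44-/- samples. Its log2 fold change was -0.02 with a 95% interval from -0.16 to 0.11. By abundance Cpt1a ranked 496 of the 10800 genes. Cpt2, which releases the acyl-CoA inside the mitochondrion, averaged 26.2 ± 0.173 and 26.1 ± 1.16 FPKM (SD, n = 3 each) in CD44+/+ and CD44-/- samples, and its 2 groups overlapped. The muscle form Cpt1b stayed between 0.000115 and 0.502 FPKM and the brain form Cpt1c at or below 0.0630 FPKM, so that of the 3 Cpt1 genes only Cpt1a was above 0.502 FPKM in any sample. Slc25a20, which carries acylcarnitines across the inner membrane, had values from 31.3 to 33.4 FPKM and a log2 fold change of 0.00.

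The other carnitine acyltransferases handle short and medium chains. Crat, the carnitine acetyltransferase of mitochondria and peroxisomes, had 24.6, 25.5 and 27.8 FPKM in CD44+/+ samples and 22.5, 23.9 and 22.7 FPKM in CD44-/- samples, so the groups did not overlap. The log2 fold change was -0.17 (standard error 0.06, 95% interval -0.32 to -0.03) with an unadjusted p of 0.0262 and an adjusted p of 0.554 by limma. Crat lies on the reverse strand of chromosome 2 at chr2:30400471-30415813 in GRCm38 (mm10). Cd44 is on the same chromosome, at chr2:102811142-102901665 by the deposited positions. Acot8 and Phyh, also on chromosome 2, had log2 fold changes of -0.05 and -0.01. Of the 12 genes tested within 250 kb of Crat, 1 (Dolpp1) had an unadjusted p under 0.05 by limma, against 7.69% of all genes tested. Exons of genes on the opposite strand overlap Crat by 470 bases in the GENCODE annotation, mostly those of Gm16323, the rest of Dolpp1. Dolpp1 averaged 12.2 FPKM in CD44+/+ and 10.9 FPKM in CD44-/- AMs, with a log2 fold change of -0.16. The study's methods name a stranded library kit, but whether counting used the strand is not given in the sources used here. The part of shared fragments in the Crat value was not tested. Crot, the peroxisomal octanoyltransferase, had overlapping groups and a log2 fold change of 0.06.

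The 4 acyl-CoA dehydrogenases, which take the first oxidation step on chains of decreasing length, had log2 fold changes from -0.02 to 0.09. Acadvl, for very long chains, had 57.3, 52.2 and 52.8 FPKM in CD44+/+ and 55.7, 52.6 and 52.2 FPKM in CD44-/- samples. Its level is uncertain if counting ignored the strand, since 1151 of its 2686 exonic bases lie opposite exons of Dvl2. Acadl, for long chains, had a log2 fold change of 0.02 (95% interval -0.11 to 0.15), and Acadm, for medium chains, had -0.01 (95% interval -0.17 to 0.14). Acads, for short chains, had the highest of the 4 estimates, 0.09, with an interval from -0.08 to 0.26. Mean levels of the 4 were close to one another, between 48.3 and 60.0 FPKM over the 6 samples.

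For the next steps of the cycle, Hadha and Hadhb encode the alpha and beta subunits of the trifunctional protein, and Echs1, Hadh and Acaa2 encode the hydratase, dehydrogenase and thiolase for shorter chains. Hadha had 106, 97.3 and 99.7 FPKM in CD44+/+ and 104, 100 and 104 FPKM in CD44-/- samples. Hadhb had 45.0, 41.3 and 39.0 FPKM and then 43.0, 44.9 and 43.3 FPKM. The 2 genes stand head to head on chromosome 5, with RefSeq transcript starts 272 bases apart, and Hadha exceeded Hadhb by 2.23 to 2.55 times in the 6 samples. That ratio did not separate the genotypes (exact permutation p = 0.6, two-sided), and 21.4% of the stretches of 40 bases in Hadhb transcripts also occur in another gene, mainly Gm13910, so its level is less certain than that of Hadha.

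Hadh had 35.3, 35.1 and 34.2 FPKM in CD44+/+ samples and 35.7, 38.4 and 38.5 FPKM in CD44-/- samples. These groups did not overlap, but the gap between the nearest samples was small, and the log2 fold change of 0.11 (standard error 0.05) had an adjusted p of 0.721 by limma. Acaa2, the thiolase, had a similar estimate of 0.11 with overlapping groups. The log2 fold change of Echs1 was -0.10 (95% interval -0.24 to 0.04).

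Unsaturated chains need auxiliary enzymes that move or reduce their double bonds, and among the 3 examined Eci2 differed most. Eci2, an enoyl-CoA isomerase found in peroxisomes and mitochondria, had 65.6, 64.2 and 64.2 FPKM in CD44+/+ samples and 70.5, 78.3 and 74.4 FPKM in CD44-/- samples. All 3 CD44-/- values were thus above all 3 CD44+/+ values, which were nearly equal to one another. The log2 fold change was 0.20 (standard error 0.05, 95% interval 0.08 to 0.32), with an unadjusted p of 0.00467 and an adjusted p of 0.36 by limma. Eci2 lies at chr13:34977748-35027096 on the reverse strand in GRCm38, beside its paralog Eci3, and 9.62% of its 40-base stretches recur in another gene, chiefly Eci3. Eci3 was far lower, with 0.839, 1.08 and 1.10 FPKM in CD44+/+ and 1.47, 1.32 and 1.83 FPKM in CD44-/- samples, a log2 fold change of 0.56 (adjusted p = 0.486 by limma). Eci1, the mitochondrial isomerase, had a log2 fold change of -0.04, and Decr1, the dienoyl-CoA reductase, had 0.01, with means of 9.44 and 9.51 FPKM in CD44+/+ and CD44-/- AMs.

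Electrons from the dehydrogenases pass to the electron transfer flavoprotein, encoded by Etfa and Etfb, and from there to the respiratory chain through Etfdh. Levels of Etfb were from 193 to 231 FPKM, those of Etfa from 90.6 to 103 FPKM and those of Etfdh from 26.7 to 31.9 FPKM. The log2 fold changes were 0.06, 0.03 and 0.06, and each group overlapped the other. In all 3 genes replicate 1 was the highest sample of each genotype. The level of Etfb is uncertain, since 47.4% of its 40-base stretches also belong to Gm45233, an overlapping gene of the same strand.

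In peroxisomes the cycle is run by acyl-CoA oxidases, the multifunctional proteins Ehhadh and Hsd17b4, and the thiolase Acaa1a, with Abcd3 bringing in substrates, Phyh starting on branched chains and Acot8 releasing free acids. None of the 7 genes of this role had groups that stood apart or an unadjusted p under 0.05, and their log2 fold changes ran from -0.05 to 0.09. Hsd17b4 was the most abundant, with 183, 158 and 162 FPKM in CD44+/+ and 185, 162 and 166 FPKM in CD44-/- samples. Acox3, the oxidase for branched chains, had 75.4 to 82.9 FPKM. Ehhadh, which acts on partly different substrates from Hsd17b4, was much lower, from 9.9 to 11.6 FPKM.

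Acaa1a had 110, 100 and 97.5 FPKM in CD44+/+ samples and 103, 112 and 113 FPKM in CD44-/- samples. Its close paralog Acaa1b, another peroxisomal thiolase, had 116, 86.9 and 89.6 FPKM and then 102, 77.1 and 77.4 FPKM. The genes share 15.3% of the 40-base stretches of Acaa1a and 34.9% of those of Acaa1b with other genes, chiefly with each other, so that the division of fragments between them is uncertain. Their sum ranged from 187 to 226 FPKM in CD44+/+ and from 189 to 205 FPKM in CD44-/- samples, with a log2 difference of -0.03.

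Peroxins build the organelle, and here a single gene stood out. Pex11a, a membrane protein that takes part in the division of peroxisomes, had 13.9, 18.0 and 18.2 FPKM in CD44+/+ samples and 9.74, 9.54 and 11.8 FPKM in CD44-/- samples. No CD44-/- sample reached the lowest CD44+/+ sample, and the means were 16.7 ± 2.43 and 10.4 ± 1.25 FPKM (SD, n = 3 each). The log2 fold change was -0.68 (standard error 0.12, 95% interval -0.96 to -0.40), the lowest among the 40 tested genes, with an unadjusted p of 0.000446. The adjusted p by limma was 0.142, which does not pass the threshold. Without CD44+/+ replicate 1, whose level was the nearest to the CD44-/- samples, the log2 fold change was -0.81 and the adjusted p was 0.0319. That was the only one of 15 alternatives in which Pex11a passed, and leaving out any other sample gave an adjusted p from 0.155 to 0.579 by limma. In bulk RNA, a lower value of a transcript in each cell cannot be told apart from fewer cells that carry it.

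The related Pex11g had a log2 fold change of -0.08 and overlapping groups. The import receptor Pex5, the docking protein Pex14 and the membrane protein chaperone Pex19 had log2 fold changes of 0.05, -0.08 and 0.04. None of the 12 other peroxins tested had an unadjusted p under 0.05, and their median log2 fold change was -0.01. Pex14 shares 1776 exonic bases with a gene on the opposite strand, Gm17029, and its value is uncertain to that extent if counting ignored the strand.

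Pex11a lies at chr7:79735957-79743131 on the reverse strand of GRCm38. Its neighbour Plin1, which encodes a lipid droplet coat protein and lies 4488 bases away by the positions in the deposited table, had 2.79, 2.53 and 2.66 FPKM in CD44+/+ samples and 1.78, 1.21 and 1.21 FPKM in CD44-/- samples. That is a log2 fold change of -0.90, with an unadjusted p of 0.000592 and an adjusted p of 0.158 by limma. Of the 6 genes tested within 250 kb of Pex11a, Plin1 and Kif7 (-0.47) had an unadjusted p under 0.05, against 7.69% of all genes tested (2.94% lower), and the 4 others (Ticrr, Anpep, Ap3s2 and Arpin) ran from -0.28 to 0.19.

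The ketone body enzymes include the gene that passed the adjusted threshold, and the other 2 had overlapping groups. The 6 other ketone body genes tested had a median log2 fold change of -0.06. Of these, 2 (Aacs and Acat2) were lower in CD44-/- AMs with an unadjusted p under 0.05 by limma. Over all genes tested that share was 7.69% (2.94% lower). Oxct1, succinyl-CoA:3-ketoacid CoA transferase, activates acetoacetate in mitochondria. Its level was 41.4, 36.6 and 38.9 FPKM in CD44+/+ samples against 53.1, 52.5 and 51.6 FPKM in CD44-/- samples, so that the genotypes were well apart and the CD44-/- samples were nearly equal. Oxct1 rose by 0.43 on the log2 scale (standard error 0.06, 95% interval 0.30 to 0.56), with an adjusted p of 0.0475 by limma. With the replicate number as a block the adjusted p was 0.0943, and the call was kept in 6 of 15 alternative settings, in which the log2 fold change stayed between 0.38 and 0.47 while the adjusted p ranged from 0.0206 to 0.381. Of the settings that leave out a sample, the call was kept without CD44+/+ replicate 1 (adjusted p = 0.0206 by limma) and lost without any of the others (0.0665 to 0.381).

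Oxct1 spans chr15:4026383-4155344 on the forward strand of GRCm38. An antisense gene, BC037032, overlaps 467 bases of its exons, but BC037032 was at most 0.0419 FPKM in any sample. No stretch of 40 bases in Oxct1 transcripts recurs in another gene, and both testis forms of the transferase, Oxct2a and Oxct2b, were listed at 0 in every sample. Neither of the 2 genes tested within 250 kb, Fbxo4 and AW549877, had an unadjusted p under 0.05, with log2 fold changes of 0.16 and 0.08.

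Among the partners of Oxct1, Acat1, the mitochondrial thiolase that splits the acetoacetyl-CoA it makes, had 38.6, 36.4 and 32.6 FPKM in CD44+/+ and 38.8, 35.1 and 36.5 FPKM in CD44-/- samples, a log2 fold change of 0.04. Bdh1, which interconverts the 2 main ketone bodies, had 4.24, 3.66 and 5.14 FPKM and then 4.25, 5.17 and 5.79 FPKM. Its log2 fold change of 0.22 had a wide interval, from -0.13 to 0.57, and the groups overlapped. The ratio of Oxct1 to Acat1 was 1.09 ± 0.0952 in CD44+/+ and 1.43 ± 0.0645 in CD44-/- samples (SD, n = 3 each), which restates the separation of Oxct1 and is given as a description.

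Acetoacetate can also be activated in the cytosol, for lipid synthesis, by Aacs. Aacs had 14.5, 14.8 and 15.9 FPKM in CD44+/+ samples and 13.6, 11.6 and 11.8 FPKM in CD44-/- samples, without overlap, a log2 fold change of -0.29 with an unadjusted p of 0.00597 and an adjusted p of 0.369 by limma. Acat2, the cytosolic thiolase, had a log2 fold change of -0.20, also without overlap (unadjusted p = 0.0314, adjusted p = 0.581 by limma). The estimates for the mitochondrial and the cytosolic enzyme thus had opposite signs. The ratio of Oxct1 to Aacs was 2.59 ± 0.229 in CD44+/+ and 4.27 ± 0.324 in CD44-/- samples (SD, n = 3 each), which is a description, since the lack of overlap in both genes fixes its direction. The monocarboxylate carriers Slc16a1, Slc16a3 and Slc16a7, which carry ketone bodies and lactate, had log2 fold changes of 0.00, 0.01 and -0.09.

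**Figure D3:**
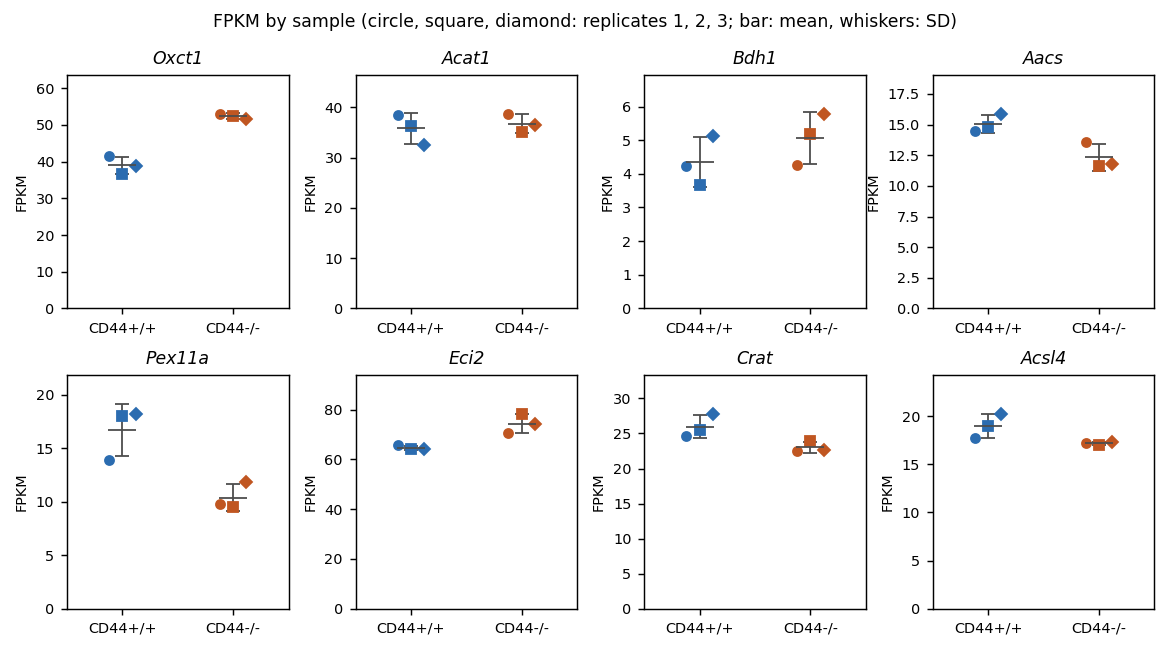
FPKM of Oxct1, Acat1, Bdh1, Aacs, Pex11a, Eci2, Crat and Acsl4 in each sample on linear axes that start at 0, with circles, squares and diamonds for replicates 1, 2 and 3, horizontal bars for means and whiskers for the SD of 3 samples. The 3 CD44-/- samples lie above the CD44+/+ samples for Oxct1 and Eci2 and below them for Aacs, Pex11a, Crat and Acsl4, and the genotypes overlap for Acat1 and Bdh1.

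Long-chain acyl-CoA synthetases activate fatty acids for either oxidation or storage. Acsl5 was the most abundant with 70.5 to 75.2 FPKM, and its log2 fold change of -0.02 had the smallest standard error of the 40 genes, 0.05. Acsl1 had 40.14, 39.95 and 37.18 FPKM in CD44+/+ and 36.55, 35.65 and 36.29 FPKM in CD44-/- samples. Acsl4, which prefers arachidonic acid, had 17.7, 19.0 and 20.2 FPKM and then 17.2, 17.0 and 17.3 FPKM. Neither gene's groups overlapped, with CD44-/- samples below CD44+/+ samples in both, but the log2 fold changes were small, -0.11 for Acsl1 and -0.14 for Acsl4, and the adjusted p values by limma were 0.685 and 0.678. Acsl3 was the lowest of the tested genes, with 1.48 to 1.98 FPKM, and Acsl6 was listed at 0 in every sample. The 4 Acsl genes together summed to between 130 and 136 FPKM in CD44+/+ and between 126 and 129 FPKM in CD44-/- samples.

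Among the 4 genes of fuel choice, Ppara, the nuclear receptor that drives oxidation genes in liver, was not tested, since no sample exceeded 0.05 FPKM. Its relative Ppard had 21.1, 19.5 and 21.1 FPKM in CD44+/+ and 22.0, 18.1 and 18.2 FPKM in CD44-/- samples, a log2 fold change of -0.09. Ucp2, a carrier of the inner mitochondrial membrane, was the most abundant of the 41 genes at rank 16 of 10800, with 2050, 1800 and 1670 FPKM in CD44+/+ and 1860, 1840 and 1910 FPKM in CD44-/- samples, and a log2 fold change of 0.03. Pdk4, the kinase that shuts pyruvate out of oxidation when fat is burnt, had a log2 fold change of 0.14 (95% interval -0.12 to 0.40), and the intervals of Ppard, Ucp2 and Pdk4 all contained 0.

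The first 250 bases upstream of the RefSeq transcript start were searched, on both strands, for AGGTCA, the hexamer bound by nuclear receptors, and for 2 copies of AGGNCA in a row with 1 base between them, the kind of repeat that PPAR and RXR pairs bind. Windows were on hand for 35 of the 41 genes. AGGTCA was in windows of 4 of them (Acadm, Acadvl, Cpt1a and Echs1), where 14.0% of all 32851 windows hold it, and the repeat was in none, where 0.338% of all windows hold it. The hexamer was not in the windows of Oxct1 or Pex11a, whose upstream sequence is shown beside that of Acadvl because these are the genes with the largest differences and a gene with the motif and no difference. The capitals mark AGGTCA, 81 bases before the start of Acadvl, and for Oxct1 and Pex11a the longest stretch free of coding gene exons is given. All are GRCm38, written 5′ to 3′ on the strand of the gene, at chr15:4026178-4026382 (forward) for Oxct1, chr7:79743184-79743381 (reverse) for Pex11a and chr11:70015429-70015678 (reverse) for Acadvl.
Oxct1: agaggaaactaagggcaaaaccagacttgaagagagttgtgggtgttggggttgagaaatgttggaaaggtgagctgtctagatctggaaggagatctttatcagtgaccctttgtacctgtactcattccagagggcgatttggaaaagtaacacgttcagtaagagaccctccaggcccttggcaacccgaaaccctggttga
Pex11a: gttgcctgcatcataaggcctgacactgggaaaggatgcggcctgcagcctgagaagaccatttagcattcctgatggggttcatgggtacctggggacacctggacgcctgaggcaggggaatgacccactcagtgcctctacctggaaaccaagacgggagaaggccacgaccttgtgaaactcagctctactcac
Acadvl: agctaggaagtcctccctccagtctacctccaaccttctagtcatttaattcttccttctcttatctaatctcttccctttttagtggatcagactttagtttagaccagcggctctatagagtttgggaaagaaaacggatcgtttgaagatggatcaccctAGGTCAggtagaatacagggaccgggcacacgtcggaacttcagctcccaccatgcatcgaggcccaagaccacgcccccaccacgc

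Beyond the 41 genes, 100 other genes of the same pathways were examined, of which 85 were tested and 0 passed the adjusted threshold by limma. Before adjustment 6 of them had a p under 0.05 by limma, 2 higher and 4 lower in CD44-/- AMs, against 7.69% of all genes tested, so these genes too were near the background. The median log2 fold change of the 85 was 0.01. Of the 6, the 2 with positive values were Fabp5, a fatty acid carrier (0.28), and Rxra, the nuclear receptor partner of the PPARs. Rxra had 105.6, 101.0 and 101.9 FPKM in CD44+/+ and 115.8, 110.7 and 113.2 FPKM in CD44-/- samples (0.14, adjusted p = 0.484 by limma). Beside Aacs and Acat2, the negative ones were Pdha1, a subunit of pyruvate dehydrogenase (-0.13), and Abcd2, a peroxisomal transporter of very long-chain acyl-CoA. Abcd2 had 73.7, 70.7 and 68.6 FPKM in CD44+/+ and 64.8, 63.4 and 59.3 FPKM in CD44-/- samples, without overlap, with a log2 fold change of -0.18 and an adjusted p of 0.415, while its relatives Abcd3 and Abcd4 both had 0.03.

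By role, 16 of the 21 other mitochondrial oxidation genes tested had log2 fold changes above 0, with a median of 0.05. Over all 10800 genes tested 6027 were above 0, with a median of 0.01. None of the 21 had an unadjusted p under 0.05. Of the 22 other peroxisomal enzymes and transporters 1 did (Abcd2), and their median was -0.02. With the replicate block Acaa1b did as well, since it was lower in CD44-/- AMs in all 3 same-numbered pairs (log2 fold change -0.19, unadjusted p = 0.197 without the block and 0.00333 with it, adjusted p = 0.236 with it by limma), while Fabp5 no longer did (0.0517). Dbi, an acyl-CoA binding protein, and Plin2, which coats lipid droplets, also had an unadjusted p under 0.05 with the block (0.0469 and 0.0374 by limma). That made 8 of the 85 genes, all but Rxra with negative log2 fold changes. The share of all genes under that threshold with the block was not counted, so these 8 have no background and are a description. After adjustment with the block 0 of the 85 passed by limma, beside 0.0833% of all genes tested. Among the 14 other genes of fuel choice, Angptl4, a lipase inhibitor induced by PPARs, had 69.9 to 88.7 FPKM and a log2 fold change of 0.02, and the lipid droplet coat gene Plin2 had -0.13 (adjusted p = 0.697 by limma). Ucp3 had 35.0 to 38.3 FPKM, with a log2 fold change of -0.02, and Ucp1 was at most 0.13 FPKM.

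Samples of the same genotype also differed from one another. In CD44+/+ AMs replicate 1 was the highest of the 3 samples in 25 of the 40 tested genes, and in CD44-/- AMs replicate 1 was the highest in 22 of 40, beside 57.0% and 43.6% of all genes tested. CD44-/- replicate 2 was the highest of its genotype in 5 of the 40, beside 31.6% of all genes tested. After each gene was centred on its mean over the 6 samples, the median of the 40 genes was 0.06, -0.04 and -0.07 on the log2 scale in CD44+/+ replicates 1, 2 and 3 and 0.03, -0.03 and 0.02 in the CD44-/- replicates. Over all genes tested the medians were 0.05, -0.02 and -0.05 and then 0.03, 0.01 and -0.01, so that in CD44-/- replicates 2 and 3 the 40 genes and all genes lay on opposite sides of 0. These shifts between pools of one genotype were wider than the 0.03 between genotypes.

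**Figure D4:**
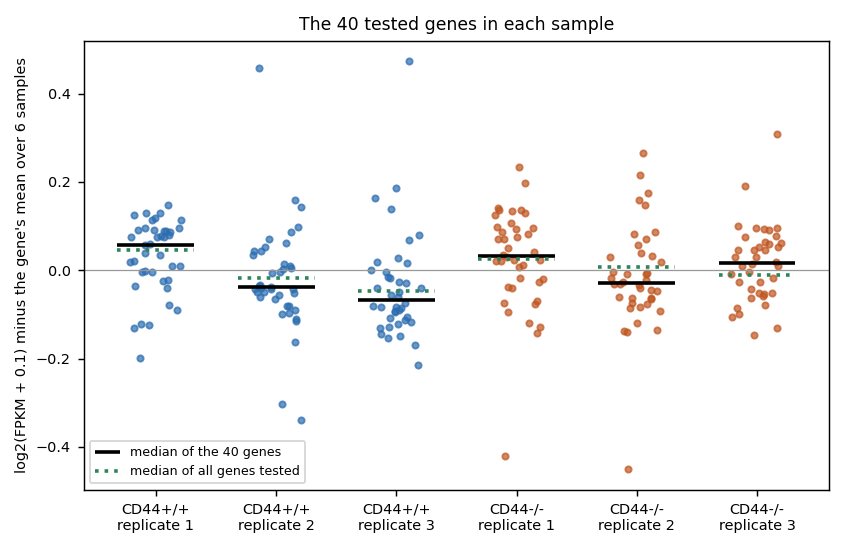
Each point is 1 of the 40 tested genes in 1 sample, as log2(FPKM + 0.1) minus the gene's mean over the 6 samples, with the median of the 40 genes as a solid line and that of all 10800 genes tested as a dotted line. Medians of the 40 genes lie between -0.07 in CD44+/+ replicate 3 and 0.06 in CD44+/+ replicate 1, and the points farthest from 0 belong to single genes and not to a shift of the set.

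Markers of other cells were measured in the same samples. Those of monocytes and interstitial macrophages, such as the complement genes C1qa and C1qc, summed to 17.2 to 18.9 FPKM in CD44+/+ and 21.8 to 24.0 FPKM in CD44-/- samples, so the groups did not overlap (exact permutation p = 0.1, two-sided, the smallest that 3 against 3 samples can give), with 7 of its 9 genes above 0.5 FPKM. Their part in the differences of Oxct1, Pex11a, Eci2 and Crat was not tested. The summed levels of all other marker lists overlapped between genotypes, although single markers could differ. All 7 airway secretory markers had log2 fold changes below 0, with a median of -0.35, and each had overlapping groups. Sftpb, a surfactant protein gene of alveolar type 2 cells, had 2.13, 1.26 and 1.48 FPKM in CD44+/+ and 3.80, 2.32 and 6.53 FPKM in CD44-/- samples (unadjusted p = 0.00588, adjusted p = 0.369 by limma), and Sftpc had 15.5, 6.83 and 9.72 FPKM and then 22.8, 12.4 and 74.2 FPKM. Sftpd, Napsa and Abca3 of the same list had log2 fold changes of 0.08, -0.01 and -0.04 with overlapping groups. Among neutrophil markers Csf3r was higher in CD44-/- samples without overlap (log2 fold change 0.33, unadjusted p = 0.0176 by limma) and Ltf had a log2 fold change of -0.99 (unadjusted p = 0.0389 by limma). The part of these markers in the results was not tested. The sums were 62.4 to 167 and 65.6 to 86.9 FPKM for neutrophils (6 of 9 genes above 0.5 FPKM, Camp and Ngp at 0), 90.8 to 106 and 94.1 to 168 FPKM for alveolar type 2 cells (6 of 8), 825 to 1351 and 628 to 1066 FPKM for airway secretory cells (7 of 7), and 12.6 to 45.8 and 12.4 to 119 FPKM for erythroid cells (6 of 8, with 1 gene at 0). T cell markers summed to at most 2.77 FPKM (1 of 7) and B cell markers to at most 0.588 FPKM (0 of 5).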

How the data were processed

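RNA of AMs was measured in 3 CD44+/+ and 3 CD44-/- samples, grouped by the genotype in the labels. The authors aligned reads to mm10 with STAR and deposited Cufflinks FPKM values for 24341 genes, scaled by the authors for transcript length and library size. Columns of per-sample FPKM were used as deposited. The table also holds Cuffdiff means, fold changes, p-values and q-values for the same comparison, which were not used. Values follow the gene identifier column, which was used to find the genes. A further gene name column and the positions beside it stand in another order (the 2 name columns match in 0 rows), so positions were looked up by that name.

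The 41 genes and all lists were chosen with earlier results of these data known, and all members are named. Genes averaging 0.5 FPKM or more were fitted as log2(FPKM + 0.1) in limma 3.58.1 (R 4.3.3), with eBayes moderation that follows an intensity trend, two-sided, and adjusted by Benjamini-Hochberg over 10800 genes. Single ratios and sums were compared by an exact permutation test over all 20 splits. Of the other pathway genes, those with an adjusted p under 0.05 were to be named, otherwise the 2 of each list with the smallest unadjusted p if under 0.05, and Cd44 as the check of the genotype. Single markers and the relatives, partners, neighbours and overlapping genes of members were named after their values were seen. A few of the listed genes are not reported here. Transcripts and overlaps came from GENCODE vM21, and upstream windows from RefSeq (GRCm38.p6). Shared sequence was counted as stretches of 40 bases found in another gene's transcripts.

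The fit was tested on simulated data with known changes. A log2 change of 0.5 was called in 52% of 200 changed genes, a change of 1 in 90% and a change of 2 in 98%. Among unchanged genes 5 to 9 were called in these runs, and 0 where no gene was changed. Absolute depth is unknown, and relative depth came from the steps between values under 0.05 FPKM. Deviations of same-numbered samples from their group means correlated at 0.212, 0.132 and 0.211 over all genes tested, so the numbers were taken as pairs in the replicate block, although no source says that they were collected together. Alternatives were pseudocounts of 1 and 0.01, a filter at a mean of 1 FPKM or none, median-ratio or quantile scaling, eBayes without a trend or robust, the replicate block, and leaving out each sample.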

Additional observations from a re-analysis of the deposited data

How the results depend on the processing

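Of the 40 genes tested, 1 passed the adjusted threshold by limma, and 0 did with a mean of at least 1 FPKM (Oxct1 adjusted p = 0.0524), with no filter (0.147), without a trend (0.172) or with the replicate block (0.0943). Leaving out 1 sample gave 0 to 2, with Oxct1 and Pex11a called without CD44+/+ replicate 1. With an unadjusted p under 0.05 there were 4 of the 40, 7 with no filter, and 3 to 7 when 1 sample was left out, with the highest count without CD44+/+ replicate 1. Over all genes 12 passed, 7 with no filter and 6 to 36 without 1 sample, the lowest without CD44-/- replicate 2 and the highest without CD44+/+ replicate 1. Of the other pathway genes 0 passed in any alternative. In the main fit 6 had an unadjusted p under 0.05, against 14 without CD44+/+ replicate 1 and 8 with the replicate block. With no filter, with the block or without a sample, the share of all genes with an unadjusted p under 0.05 was not counted. Counts of the 40 and of the other pathway genes in those settings are therefore descriptions. The replicate block changed no other call among the 40 genes, and 9 of all genes passed with it. Median differences of the 40 genes ran from -0.001 without CD44+/+ replicate 3 to 0.06 without CD44+/+ replicate 1. The 4 genes with an unadjusted p under 0.05 changed sign in 0 of 15 alternatives. Their groups did not overlap, so leaving out a sample could not change the sign. Of the 36 others, 17 changed sign in at least 1 alternative. The cause of these changes was not tested. After median-ratio scaling 478 of 898 genes with an unadjusted p under 0.05 were higher.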
